A study of Mus musculus with 3 samples.

Results

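The genes described here mark parts of the kidney: podocytes, nephron progenitors and early nephrons, the tubule segments, the collecting duct and the interstitium. They were taken as a fixed set of 30 gene symbols and looked up on arrays of the embryonic mouse ureter, to ask which kidney genes are seen in the tube that leaves the kidney. Of these, 29 had at least 1 probe set annotated to that gene alone, out of 18194 genes named on the array in this way. Magi2, which encodes a scaffold protein of the podocyte slit diaphragm, had no such probe set and was not analysed here. The samples form 1 group of 3 arrays, replicates 3, 8 and 9, of ureters from wild-type FVB/N embryos at embryonic day 15 (Theiler stage 23), with the sex given as unknown. Each ureter was dissected from the renal pelvis to its entry into the bladder and frozen, and the samples were not pooled. The RNA was amplified in 2 rounds and hybridised to 1-colour Affymetrix Mouse Genome 430 2.0 arrays. Nothing in the labels ties a sample to an embryo or litter of its own, and p-values then measure the spread between these samples, part of which may be technical.

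The kidney grows from an epithelial bud, the ureteric bud, and the mesenchyme around its tips. The bud branches into the collecting ducts, and its stalk becomes the lining of the ureter. Nephrons form from the mesenchyme: podocytes make the filter of the glomerulus, whose foot processes are joined by the slit diaphragm, and the tubule segments recover filtered protein, salt and water. Podocyte and transporter genes are used as signs of formed nephrons, while several genes of this set are also active in mesothelium, endothelium, neurons or mesenchyme.

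With 1 group there is no second condition, so each gene was set against a background level. Background was the 95th percentile of 55 measured genes that belong to organs not dissected, among them the eye, testis, pancreas, stomach and pituitary. In replicates 3, 8 and 9 it came to signals of 421, 461 and 597. Signals are linear intensities as deposited, and a gene is represented by its brightest probe set. A gene was called above background when its signal exceeded that level on each of the 3 arrays. Its distance from background is the mean of log2(signal + 1) minus log2(background + 1) on the same array, tested against 0 with limma, adjusted over all 18194 genes. Probe sets differ in brightness for reasons other than transcript abundance, so levels of different genes are not ranked against each other. In whole ureters, fewer cells of a type and less RNA per cell cannot be told apart.

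Of the 29 measured genes, 11 were above background on all 3 arrays, a share of 37.9% against 51.4% of all named genes. Another 15 were below background on all 3 arrays, where 38.6% of all named genes lay, and 3 were above it on 1 or 2 arrays, as were 10.1% of named genes. By limma, 12 genes were above background (48.0% of all named genes were) and 14 below it (35.7%), while 3 did not pass. The median distance from background was −0.75 (log2) over the 29 genes and 0.60 over all named genes. The genes above background were 5 podocyte genes, 2 genes of nephron progenitors and early nephrons, 1 tubule gene, 2 duct genes and Penk.

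**Figure D1:**
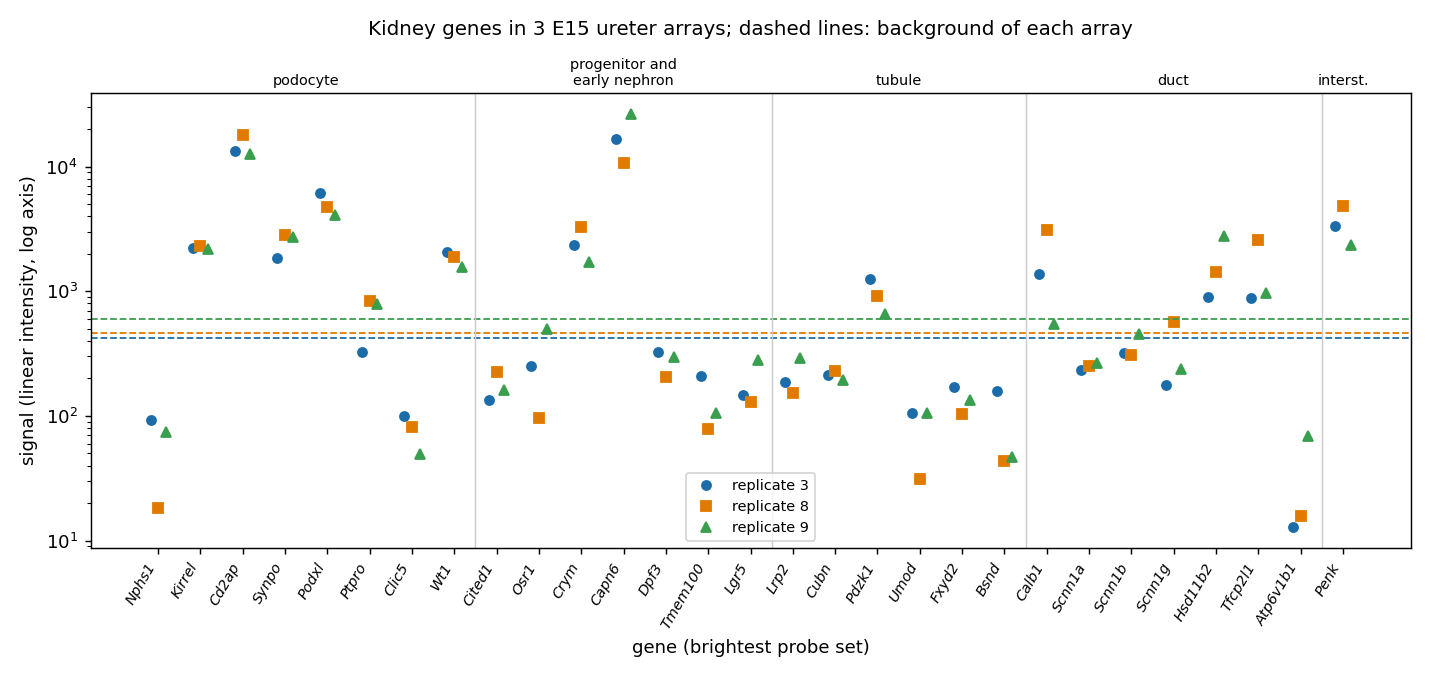
Signal of the brightest probe set of each of the 29 kidney genes (vertical log axis, linear intensity) on the 3 ureter arrays, grouped by role, with 1 symbol per replicate. The dashed lines are the background levels of 421, 461 and 597 in replicates 3, 8 and 9. Capn6 is at 10619 or more on each array, whereas Nphs1 reaches at most 93.5 and Atp6v1b1 at most 68.6.

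The RefSeq promoter table (GRCm38.p6) held 17 of the 30 genes, and the windows of 4 are shown because they span the set. Nphs1 and Kirrel encode the partner proteins nephrin and Neph1 of the slit diaphragm. Kirrel was above background with 1 of its 2 probe sets, and Nphs1 was not. Cd2ap and Umod had the most and the fewest CG dinucleotides among the genes measured with a single window. Each line gives the 250 bases before the annotated transcript start, with CG dinucleotides in capitals.
Kirrel, chr3:87174538-87174787, minus strand: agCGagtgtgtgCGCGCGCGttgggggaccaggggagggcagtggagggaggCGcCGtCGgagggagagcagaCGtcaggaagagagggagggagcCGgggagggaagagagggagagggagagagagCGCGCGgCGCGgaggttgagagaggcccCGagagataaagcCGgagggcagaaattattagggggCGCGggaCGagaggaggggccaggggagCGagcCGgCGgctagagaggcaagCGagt
Nphs1, chr7:30459808-30460057, plus strand: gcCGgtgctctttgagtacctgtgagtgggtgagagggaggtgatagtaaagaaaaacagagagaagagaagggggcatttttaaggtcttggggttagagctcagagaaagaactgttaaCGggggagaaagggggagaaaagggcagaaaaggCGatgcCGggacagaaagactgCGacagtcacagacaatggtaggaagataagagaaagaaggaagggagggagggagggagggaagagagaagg
Cd2ap, chr17:42876425-42876674, minus strand: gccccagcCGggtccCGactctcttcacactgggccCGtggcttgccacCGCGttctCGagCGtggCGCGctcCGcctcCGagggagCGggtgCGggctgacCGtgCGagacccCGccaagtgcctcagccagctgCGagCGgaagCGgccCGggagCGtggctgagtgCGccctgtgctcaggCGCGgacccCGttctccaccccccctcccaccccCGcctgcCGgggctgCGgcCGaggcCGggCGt
Umod, chr7:119479263-119479512, minus strand: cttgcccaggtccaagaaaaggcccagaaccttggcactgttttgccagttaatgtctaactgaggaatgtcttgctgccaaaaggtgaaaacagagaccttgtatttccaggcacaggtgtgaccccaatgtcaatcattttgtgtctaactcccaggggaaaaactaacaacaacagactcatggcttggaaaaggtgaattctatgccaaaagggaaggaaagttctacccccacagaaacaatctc

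These windows held 24 CG dinucleotides for Kirrel, 5 for Nphs1, 31 for Cd2ap and 0 for Umod, and the median over all 32851 windows of the table was 6. High and low counts occurred on both sides of the background level. Among the genes above background, Tfcp2l1 had 16, whereas Capn6 had 5 and the windows of Pdzk1 4 and 5. Of those not above background, Lrp2 had 18, Dpf3 16, Scnn1g 16 and Clic5 13, against 2 for Cubn and 3 each for Ptpro and Atp6v1b1. The letters GTTAAT, part of the site recognised by the tubule factor HNF1, were searched on both strands. They were found in the windows of Umod and Magi2, and in 6.43% of all windows. TATAAA, the letters of a TATA box, was found on either strand for Tfcp2l1 and Cited1, and in 12.4% of all windows. GGGCGG, searched in the same way, was found for 9 of the 17 genes, some with several windows, and in 32.7% of all windows. A match describes the letters in the window only.

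Nphs1, the nephrin gene that marks the podocyte slit diaphragm, had 93.5, 18.2 and 73.8 as its signals on replicates 3, 8 and 9, the order used for every gene from here on. All arrays lay far under background, at a distance of −3.25 on the log2 scale (limma 95% interval from −4.39 to −2.11, adjusted p = 0.000682). Clic5, whose protein links the foot process membrane to the cytoskeleton, was also below background on each array, at 101, 82.2 and 49.2 (limma distance −2.70, adjusted p = 0.000462). None of its 4 probe sets exceeded background on any array. The highest value, 313 in replicate 8, came from a probe set that gave 21.2 and 58.9 on the other arrays.

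Kirrel and Synpo were above background on each array. Kirrel, which encodes Neph1, the binding partner of nephrin, had signals of 2236, 2293 and 2181 in replicates 3, 8 and 9. This was the most even gene of the set, with a range of 0.07 on the log2 scale, and lay above background by 2.20 (interval from 1.53 to 2.86, limma adjusted p = 0.000347). Its other probe set gave 3.56, 14.4 and 7.05, so that averaging both probe sets put Kirrel below background (distance −1.63). Synpo, the gene of the actin-bundling protein synaptopodin, gave 1835, 2850 and 2747 (distance 2.32, limma adjusted p = 0.000262). It showed the same disagreement, its other probe set giving 10.3, 6.89 and 9.26 and the mean of both a distance of −1.46.

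Cd2ap, the gene of an adaptor that binds nephrin and also acts in membrane traffic of many cell types, was above background with more than 1 probe set. Its brightest probe set gave 13279, 17791 and 12514, a distance of 4.88 (interval from 4.16 to 5.60, limma adjusted p = 1.78e-05). The next gave 7893, 8107 and 6135, again above background on each array. The last gave 756, 733 and 519 and was above it in replicates 3 and 8. Replicate 9 was the lowest array with all 3 probe sets, and for the brightest the highest array was 1.42-fold above it.

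Podxl and Wt1 are podocyte genes that mesothelial cells also use, and Podxl is made by endothelium as well. Podxl, the gene of the surface sialomucin podocalyxin, gave 6086, 4724 and 4081, and lay above background by 3.33 (limma adjusted p = 9.15e-05). Its second probe set, at 179, 128 and 174, did not. Wt1, a transcription factor gene of podocytes and of nephron progenitors, gave 2064, 1897 and 1565, with a distance of 1.91 (interval from 1.18 to 2.63, limma adjusted p = 0.000991). Its 1 probe set ends in _s_at, the suffix of probe sets that can match more than 1 transcript.

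Both genes were highest in replicate 3 and lowest in replicate 9, within a range of 0.58 for Podxl and 0.40 for Wt1. Endothelial markers were above background for 6 of 10 genes, against 51.4% of all named genes. Their summed signals were 16446, 15297 and 11877 in replicates 3, 8 and 9, the same order as Podxl and Wt1. Not every single gene shared it: replicate 3 gave the largest signal for 6 of the 10, replicate 8 for 3 and replicate 9 for 1. Mesothelial markers were above background for 2 of 6, against the same 51.4%, namely Upk3b (1921 ± 699, SD, n = 3, as for all such values) and Gpm6a (1098 ± 382). Their sums were 4976, 2540 and 4310, and the defining gene Msln (162 ± 109) and Rspo1 (128 ± 25.7) were below background on each array. Gonad and adrenal markers are relevant to Wt1. Of the 9 measured, 0 were above background on all arrays and 5 on 1 or 2, against 51.4% and 10.1% of all named genes. The sums over these 9 markers, 4635, 4118 and 2003, had the order of Podxl and Wt1, but the single genes did not share it. The signal peaked in replicate 3 for 4 of the 9 genes, while 3 peaked in replicate 8 and 2 in replicate 9. Star and Hsd3b1 were above background in replicates 3 and 8, and Cyp11a1, Nr5a1 and Dhh in replicate 3 only. Of the gonad and adrenal markers below background on each array, Amh (12.1 ± 5.04) and Mc2r (164 ± 110) had the lowest means. The limma fit called 0 of the gonad and adrenal markers above background (48.0% of all named genes were), and 0 at an unadjusted p under 0.05. The part of these cell types in the Podxl and Wt1 signals was not tested.

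Ptpro, the gene of a receptor tyrosine phosphatase of the foot process, was at the edge. Its signals were 325, 840 and 787, above background in replicates 8 and 9 but not 3, and its distance of 0.30 did not pass (interval from −0.50 to 1.09, limma adjusted p = 0.424). Without replicate 3 it was above background on both remaining arrays. The other probe set gave 37.7, 11.3 and 56.2. Over the 8 measured podocyte genes, 5 (62.5%) were thus above background, against 51.4% of all named genes, and each of these varied by less than 1 (log2) between arrays.

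**Figure D2:**
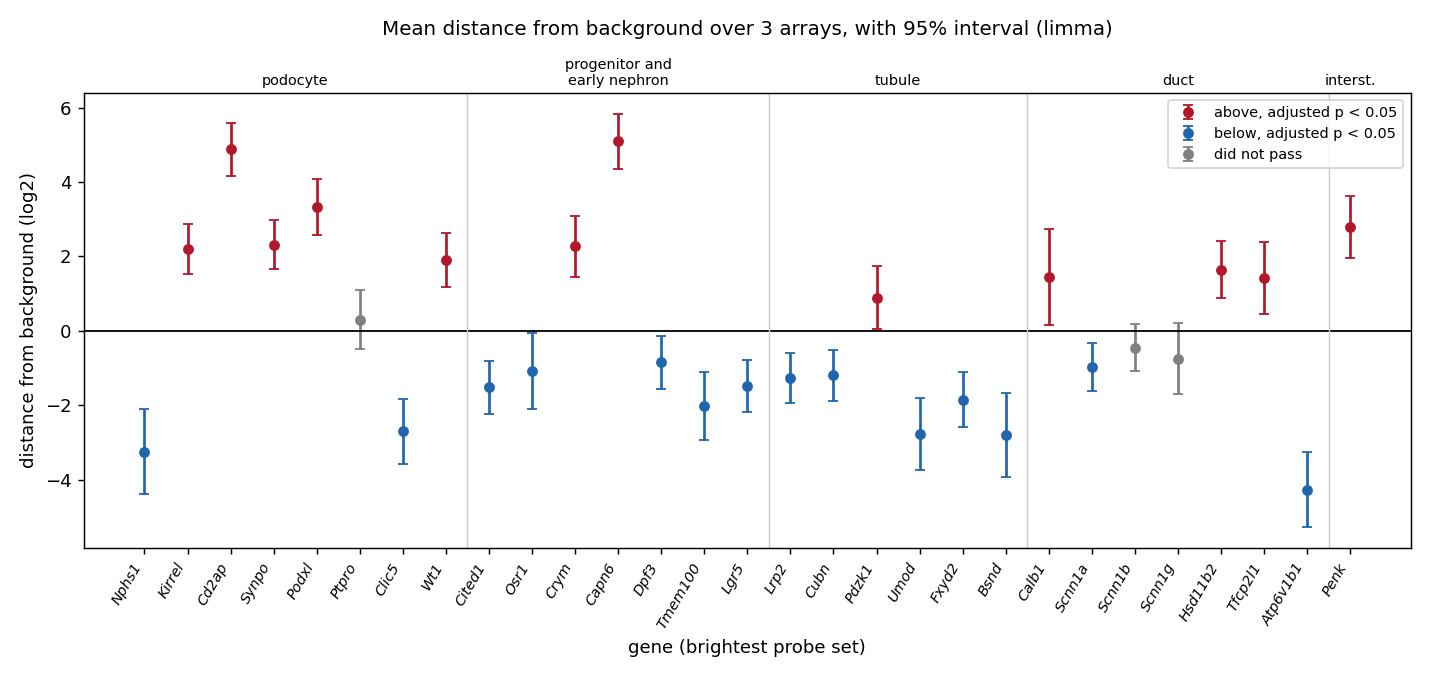
Mean distance of each gene from its array's background over 3 arrays (log2), with the 95% interval from limma, grouped by role. Red genes were above and blue genes below background at an adjusted p under 0.05, and grey genes (Ptpro, Scnn1b, Scnn1g) did not pass. Distances ran from −4.27 for Atp6v1b1 to 5.10 for Capn6.

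Genes of nephron progenitors and early nephrons were split. Capn6, a calpain family gene whose protein acts on microtubules, gave 16594, 10619 and 26614. Every array was far above background, with a distance of 5.10 (interval from 4.36 to 5.84, limma adjusted p = 1.73e-05), although replicate 9 was 2.51-fold above replicate 8. The other Capn6 probe set gave 208, 253 and 244, below background on each array. Crym, which encodes the thyroid hormone binding protein mu-crystallin, gave 2334, 3303 and 1711 and lay above background by 2.28 (limma adjusted p = 0.000773). Its order of arrays differed from that of Capn6, replicate 8 being the highest and replicate 9 the lowest.

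The other genes of this group were below background. Cited1, a transcriptional cofactor gene that marks the self-renewing cap mesenchyme, gave 134, 226 and 162 (distance −1.51, limma adjusted p = 0.00276). Osr1, a transcription factor gene of the intermediate mesoderm from which the kidney forms, gave 249, 96.6 and 502, below background on each array but with a 5.19-fold spread. Its distance of −1.08 (interval from −2.10 to −0.06, limma adjusted p = 0.0485) no longer passed without replicate 8 (−0.50) or without replicate 9 (−1.50). Dpf3, which encodes a subunit of a chromatin remodelling complex, gave 325, 205 and 297 (−0.85, limma adjusted p = 0.0321). This too no longer passed without replicate 8 (−0.69) or without replicate 9 (−0.71), and the second Dpf3 probe set was likewise below background on each array.

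Tmem100, a transmembrane protein gene also known from endothelium, gave 208, 78.4 and 105 (distance −2.02, limma adjusted p = 0.00236). Its second probe set gave 65.8, 148 and 173, in another order of arrays. Lgr5, the receptor gene for R-spondins and a mark of stem cells in epithelia and of early nephrons, gave 148, 129 and 279 (distance −1.48, limma adjusted p = 0.00268), and its second probe set reached at most 126. Both genes were below background with each probe set on each array. Thus 2 of 7 genes of this group were above background, against 51.4% of all named genes, and the other 5 below it on every array.

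Tubule genes were below background with 1 exception. Lrp2 and Cubn encode megalin and cubilin, the receptors by which the proximal tubule takes up filtered protein. Lrp2 gave 187, 152 and 292, and all 3 of its probe sets were below background on each array, the highest single value being 292 (distance −1.26, limma adjusted p = 0.00477). Without replicate 8 the limma call for Lrp2 was lost (adjusted p = 0.102). Cubn gave 211, 231 and 196, an even level within a range of 0.24 (log2), and lay 1.20 below background (adjusted p = 0.00682). With background at the 90th percentile of the reference genes, the distance of Cubn was −0.51 and did not pass.

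Genes of the later segments and of the sodium pump were below background too. Umod, the gene of uromodulin, which the thick ascending limb secretes into urine, gave 106, 31.1 and 105 (distance −2.78, limma adjusted p = 0.000681), and its other probe set did not exceed 12.8. Fxyd2, which encodes a regulatory subunit of the sodium pump, gave 172, 105 and 135, and none of its 4 probe sets was above background on any array (distance −1.85, limma adjusted p = 0.00122). Bsnd, the gene of barttin, an accessory subunit of the kidney chloride channels, gave 158, 43.7 and 46.9 (distance −2.80, limma adjusted p = 0.00132). These 3 genes kept their place below background under every alternative in which they were tested.

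Pdzk1, whose protein anchors transporters in the brush border of the proximal tubule and also acts in liver, was the exception. It gave 1244, 909 and 663, above background on each array, but in replicate 9 only by 0.15 on the log2 scale. Its mean distance was 0.90 (interval from 0.06 to 1.73, limma adjusted p = 0.0466). The limma call did not hold without replicate 3 (0.57, adjusted p = 0.206) or without replicate 8 (0.86, adjusted p = 0.167), and at the 99th percentile of the reference genes the distance was −0.066.

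Duct genes had a median range of 1.62 (log2) over the arrays, against 1.02 for all 29 genes. Hsd11b2, the gene of the enzyme that inactivates glucocorticoids in the collecting duct and in other embryonic tissues, gave 896, 1420 and 2761. It was above background on each array (distance 1.64, interval from 0.87 to 2.40, limma adjusted p = 0.00261), with replicate 9 3.08-fold above replicate 3. Tfcp2l1, a transcription factor gene of the duct epithelium, gave 888, 2573 and 975 (distance 1.42, limma adjusted p = 0.0136). Here replicate 8 was highest, and without it the limma call was lost (0.89, adjusted p = 0.150). The other 2 Tfcp2l1 probe sets gave at most 14.8, and the mean of all 3 put the gene below background (−3.24).

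Calb1, which encodes calbindin, a calcium-binding protein of the ureteric bud and the distal nephron that many neurons also make, had the widest spread among genes with a mean above background. It gave 1375, 3126 and 542, above background in replicates 3 and 8 and under it in replicate 9. Its distance of 1.44 passed (interval from 0.15 to 2.74, limma adjusted p = 0.0412), but not without replicate 3 (1.31, adjusted p = 0.0802) or without replicate 8 (0.78, adjusted p = 0.208). The other 3 probe sets were below background on each array, none above 73.9, and the mean of all 4 put Calb1 below background (−3.07). With background at the 99th percentile of the reference genes, none of Hsd11b2 (0.68), Tfcp2l1 (0.46) and Calb1 (0.48) passed as above it.

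Calb1 and Tfcp2l1 were both highest in replicate 8, by 5.77-fold and 2.90-fold over their lowest array. Urothelial markers had summed signals of 20874, 22749 and 18683 in replicates 3, 8 and 9, a sum that also peaked in replicate 8, with a smaller spread. The single genes did not share this peak: replicate 3 gave the largest signal for 4 of the 10, replicate 8 for 3 and replicate 9 for 3. Foxa1 (3650, 7188 and 5066) added the most to the sum of replicate 8. Neuron and glia markers were above background for 3 of 6 (51.4% of all named genes were). Their sums were 4865, 10830 and 13892, which is not the order of Calb1. Among the single genes, 2 of the 6 were highest in replicate 8, as Calb1 was, and 4 in replicate 9. The control probe sets of beta-actin were highest in replicate 9, the array in which Hsd11b2 and Capn6 were highest, both at the 5′ end (2868, 3932 and 12348) and at the 3′ end (21384, 25547 and 49451). Those of Gapdh did not share this order. Their 5′ probe set gave the more even values of 1680, 1457 and 1834, and the middle one was lowest in replicate 9 (11372, 7809 and 5302). The 3′ probe set of Gapdh gave 31713, 22026 and 30016. For both controls the 3′ signal was well above the 5′ signal on each array. Whether such a loss toward the 5′ end lowered other probe sets was not tested. The part of any of these in the differences between arrays was not tested.

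The 3 subunit genes of the epithelial sodium channel, which takes up sodium in the collecting duct, were at or below background. Scnn1a, the gene of the alpha subunit, gave 234, 250 and 264 and lay 0.97 below background (interval from −1.61 to −0.32, limma adjusted p = 0.0131). It no longer passed without replicate 8 (adjusted p = 0.101). Scnn1b and Scnn1g, the genes of the beta and gamma subunits, are neighbours on the same chromosome. Scnn1b gave 321, 308 and 456 (distance −0.45, interval from −1.09 to 0.19), below background on each array but not by limma (adjusted p = 0.152). With background at the 90th percentile of the reference genes, Scnn1b was above it on all 3 arrays, at a distance of 0.24 that did not pass.

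Scnn1g gave 179, 572 and 238 and was above background in replicate 8 only (distance −0.75, interval from −1.70 to 0.20, limma adjusted p = 0.118). Without that replicate it passed as below background (−1.28, adjusted p = 0.0369). In contrast to its even neighbour, it thus had a 3.20-fold spread, and its highest array was the one in which Calb1 and Tfcp2l1 were highest. Atp6v1b1, the gene of a proton pump subunit of the acid-secreting intercalated cells, was the farthest below background of the set, at 12.8, 15.8 and 68.6 (distance −4.27, limma adjusted p = 0.000107).

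Penk, the gene of the opioid precursor proenkephalin, which kidney interstitium, other mesenchyme and neurons express, gave 3332, 4864 and 2371. Each array was well above background (distance 2.79, interval from 1.95 to 3.63, limma adjusted p = 0.000334). Replicate 8 was highest and replicate 9 lowest, which was also the order of Crym.

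Only 1 probe set was available for 13 of the 29 genes, and 16 had several. Of the 54 probe sets in all, 12 were above background on each array, 4 on 1 or 2 arrays and 38 on none. Shares over all probe sets of the array were not computed for comparison. Their median signal, 234, 198 and 273 in replicates 3, 8 and 9, was itself under background on each array. Among the 6 genes above background with several probe sets, Cd2ap was the 1 gene with a second probe set above it on each array. Across the whole array, a second probe set was above it for 50.1% of such genes. The calls for Kirrel, Synpo, Podxl, Capn6 and Tfcp2l1 therefore rest on 1 probe set each. For Kirrel the dim probe set and for Tfcp2l1 the bright one were designed on a RefSeq mRNA, by the platform annotation.

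**Figure D3:**
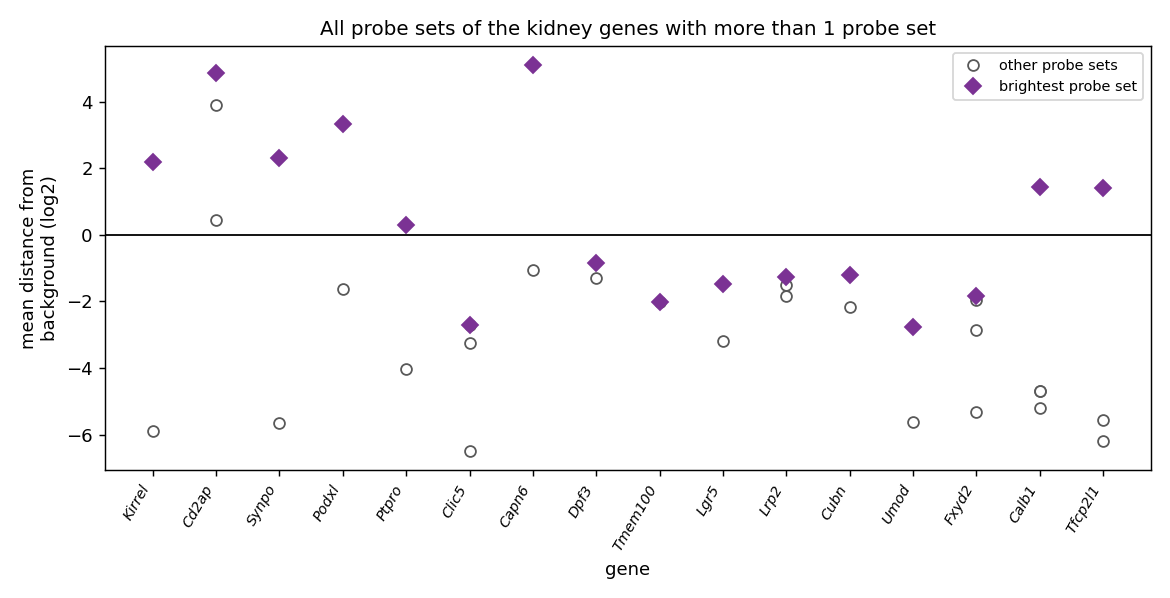
Mean distance from background (log2) of every probe set of the 16 genes with more than 1, with the brightest probe set as a filled diamond and the others as open circles. Cd2ap has all of its probe sets above the line at 0, whereas Kirrel, Synpo, Podxl, Ptpro, Capn6, Calb1 and Tfcp2l1 have their brightest above it and every other below.

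Among the 11 genes above background, 4 had a range of at least 1 (log2) over the arrays, namely Hsd11b2 (1.62), Tfcp2l1 (1.53), Capn6 (1.32) and Penk (1.04). Such a range was found in 13.5% of all named genes above background. The median range was 0.91 for the 11 genes and 0.53 for all named genes above background. Replicate 8 was the highest array for 6 of the 11, replicate 3 for 3 and replicate 9 for 2. Of all named genes above background, 36.1% were highest in replicate 8.

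A wider panel of 54 measured kidney genes outside the set was also split by role. Of these, 18 were above background on all arrays, a share of 33.3% against 51.4% of all named genes. By limma 18 were above and 24 below, where 48.0% and 35.7% of all named genes were. The lists by role are short, and their counts stand beside these same shares. Among the 12 panel genes above background with several probe sets, 1 (Snai2) had a second probe set above it on each array. Across the whole array, 50.1% of such genes did, so the calls of the other genes with several probe sets rest on 1 each. Progenitor genes were above background for 5 of 7, led by the integrin gene Itga8 (distance 3.52), Eya1 (3.27) and Sall1 (2.53), both regulators of kidney formation, while Hoxa11 was below on each array (−0.20). Renal stroma genes were above for 3 of 4: Snai2 (4.98) and Foxd1 (4.50), both transcription factor genes, and the netrin gene Ntn1 (1.21). Early nephron genes were above for 2 of 5, Wnt4 (1.91) and Pou3f3 (1.46), but not Fgf8 (−6.34) or Pax8 (−1.49).

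Podocyte genes of the panel were above background for 4 of 8, led by Cdkn1c, a cell cycle inhibitor gene (6.10), the actinin gene Actn4 (3.73) and the phospholipase gene Plce1 (3.34). The channel gene Trpc6 (−3.36) and the glomerular collagen gene Col4a3 (−2.87) were below. For the proximal tubule 2 of 9 were above, Hnf4a (3.49) and the cadherin gene Cdh6 (2.11), whereas the anion transporter genes Slc22a6 (−4.07) and Slc22a8 (−4.12) were below. The call for Hnf4a rests on 1 of its 4 probe sets, which ends in _s_at. Of the genes of the loop and distal tubule, 0 of 8 were above background and limma called 0 above (0 at an unadjusted p under 0.05), 6 being below by limma, among them Slc12a3 (−5.46) and the potassium channel gene Kcnj1 (−4.30). In the list for ureteric tip and collecting duct 2 of 13 were above, Etv5 (2.45) and Wnt7b (0.91), and the lowest were Foxi1, an intercalated cell factor gene (−4.63), and the water channel gene Aqp2 (−3.27).

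**Figure D4:**
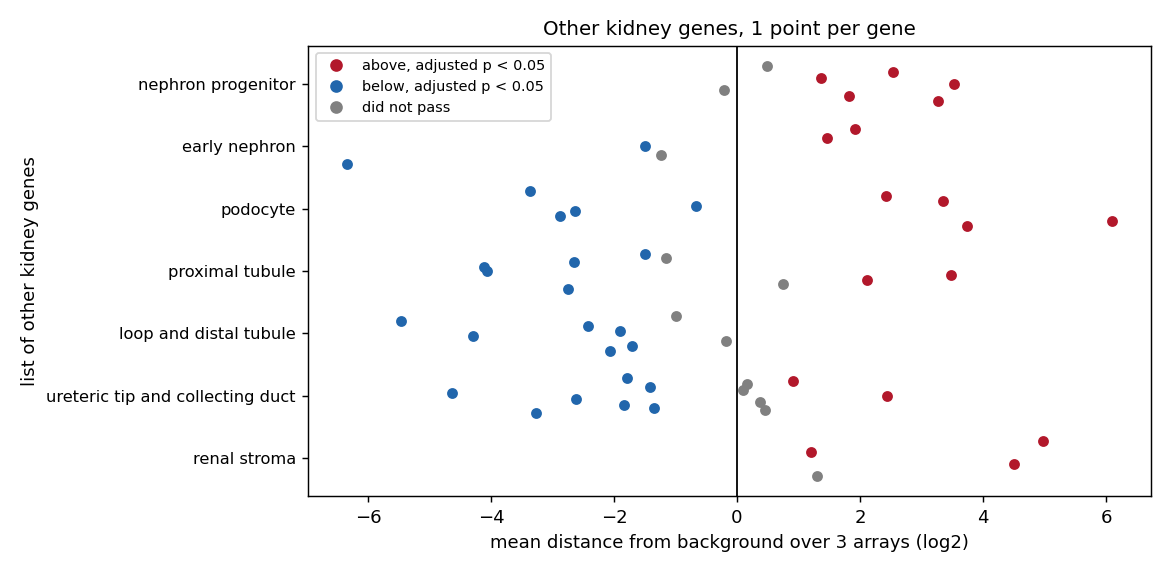
Mean distance from background over 3 arrays (log2) of 54 other kidney genes, 1 point per gene, in 7 lists by role. Red points were above and blue points below background by limma at an adjusted p under 0.05. Renal stroma and progenitor genes lie mostly to the right of 0, and no red point stands among the 8 genes of the loop and distal tubule.

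The labelled tissue was checked against its own markers. Of the markers of ureteric mesenchyme and smooth muscle, 6 of 9 were above background (5 by limma), where 51.4% of all named genes were (48.0% by limma). They included Acta2 (31713 ± 3969), Tbx18 (11783 ± 7187) and Tshz3 (3203 ± 844). The Acta2 signal rests on 1 of 3 probe sets, which ends in _s_at. Des was above background on each array but did not pass (distance 0.12, limma adjusted p = 0.682). The other 3 markers, Myh11, Cnn1 and Myocd, were above background on 1 or 2 arrays only, as were 10.1% of all named genes. Urothelial genes were above for 6 of 10 (5 by limma), including Foxa1 (5301 ± 1781), Krt19 (4986 ± 1414) and Krt5 (3500 ± 437), whereas the uroplakin genes Upk2 (99.2 ± 49.0) and Upk1a (269 ± 131) were below on each array. Endothelial markers above background included Tek (2929 ± 1308), Cdh5 (2275 ± 700) and Sox18 (2180 ± 609), while Tie1 (189 ± 85.8) and Pecam1 (236 ± 80.0) were below on each array. In the neuron and glia list those above were Stmn2 (4621 ± 2820), Fabp7 (2006 ± 1193) and Elavl4 (1624 ± 177).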

How the data were processed

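The deposited table holds linear intensities for 45101 probe sets on each array. The submitters' processing notes name the software GCOS, with version and settings not given in the sources used here. The 2% trimmed mean was 1500 on each array, so the authors' values had been scaled to a common mean, so a level is relative to the other signals of its array. Of the probe sets, 34958 carried 1 gene symbol in the platform annotation and were used, 932 carried several and 9211 were not named. All 54 probe sets of the members kept their symbol when looked up by Entrez ID in the GRCm38.p6 gene table.

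Signals were analysed as log2(signal + 1), with the brightest probe set per gene. Of 60 reference genes 55 were measured, and Tff1 and Cela1 among them were above background on all arrays. The 1-group fit used limma 3.58.1 in R 4.3.3 (two-sided, Benjamini-Hochberg over all named genes, threshold 0.05), with background taken as known, and it was tested on simulated data. Intervals are 95% per gene, without adjustment. With 3 arrays their number limits the precision.

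The members and the reference, kidney and marker lists were chosen with earlier results of these data known. Named from each kidney or marker list were up to 3 genes above background with the highest means and up to 2 below it on all arrays with the lowest, besides every member. The alternatives tried were pseudocounts of 16 and 64, quantile normalization, averaging all probe sets per gene, dropping those that end in _x_at or _s_at, background at the 90th or 99th percentile, a reference list without exocrine pancreas genes, presence on at least 2 arrays, a mean signal of at least 100 and leaving out each replicate. Reference lists without stomach or cerebellum genes were added after seeing the data.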

Additional observations from a re-analysis of the deposited data

How the results depend on the processing

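The count of kidney genes above background was 11 of 29 and ran from 8 to 14 over the alternatives (11 to 12 without each replicate in turn), below the share of all named genes in every one. The calls of 21 genes held throughout. Of the 11 above background, 6 stayed above it in every alternative in which they were measured: Cd2ap, Podxl, Wt1, Crym, Capn6 and Penk (Wt1 has no probe set left without those ending in _s_at). The limma count below background fell from 14 to 9 at the 90th percentile of the reference genes. The share of all named genes fell there from 35.7% to 28.9%. The count was also 9 when only genes with a mean signal of at least 100 were tested, which leaves out dim genes by construction. Of all genes tested in that way, 20.7% were below background. Other kidney genes above background rose from 18 to 28 of 54 at the 90th percentile, and all named genes from 51.4% to 58.5%. The limma result of 15 genes held in every alternative that tested them, and that of 14 changed in at least 1. Without each replicate in turn the limma counts were 9 to 12 above and 11 to 14 below. The shares of all named genes were then 42.9% to 47.7% above and 31.2% to 36.0% below.

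When all probe sets per gene were averaged, which takes in the dim ones, limma distances turned negative for Calb1 (−3.07), Kirrel (−1.63), Ptpro (−1.65), Synpo (−1.46) and Tfcp2l1 (−3.24). At the 99th percentile they turned negative for Pdzk1 (−0.066) and Ptpro (−0.67). Scnn1b turned positive at the 90th percentile (0.24) and without exocrine pancreas genes in the reference list (0.024), neither passing, and at the 90th percentile it was above background on all 3 arrays. The background level rests on the brightest reference genes. No paired analysis was possible because there is 1 group.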
